A study of Mus musculus with 2 samples.

Results

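Dendritic cells of regenerating mouse muscle were examined in 2 single-cell RNA sequencing libraries, 1 collected 2 days and 1 collected 7 days after notexin injury. They are the 317 barcodes that the annotation table deposited with the series calls Dendritic, out of 6879 barcodes with a cell type. Of these, 315 passed quality limits on detected genes, transcript number and mitochondrial share, 170 of 3178 cells at day 2 and 145 of 3196 at day 7. Both libraries came from the tibialis anterior, the muscle in front of the shin, of mice labelled C57Bl/6 (C57BL/6J in the annotation table) injected with notexin, a snake venom toxin that destroys muscle fibers. Whole muscle was dissociated, and the table gives 1 mouse per library. No uninjured library was analysed here. The sample labels give female mice aged 7 months for both days, whereas the annotation table gives male mice aged 4 months at day 2 and 7 months at day 7. In dendritic cells no Xist count was found at either day, and 4 genes of the Y chromosome (Eif2s3y, Kdm5d, Uty and Ddx3y) together held 348 counts at day 2 and 215 at day 7. With 1 library per day there is no replicate check, and day, animal, age and library cannot be told apart. Unless said otherwise, a range in parentheses is a 95% interval, which covers counting error only.

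Dendritic cells take up antigen, load it onto MHC molecules and present it to T cells. Conventional type 1 cells are specialized for presenting captured antigen on MHC class I. Conventional type 2 cells present mainly to CD4+ T cells and share many surface proteins with monocytes and macrophages. Mature, migratory cells turn on the chemokine receptor Ccr7 and travel to lymph nodes, and plasmacytoid cells are known for type I interferon. In injured muscle these cells appear among a large infiltrate of monocytes and macrophages.

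The authors assigned cell types from marker genes, so the levels of 4 dendritic markers describe the label and are no independent check of it. Cd209a (ENSMUSG00000031494, mm10 chromosome 8, 3743397 to 3748984, minus strand), a C-type lectin, reached 394 CPM, that is, counts scaled to the same total per library, in the summed dendritic cells at day 2 and 414 at day 7. Flt3 (ENSMUSG00000042817, chromosome 5, 147330741 to 147400489, minus strand), the receptor for the growth factor that dendritic cells depend on, reached 79.6 and 241 CPM. Xcr1 (ENSMUSG00000060509, chromosome 9, 123852315 to 123862029, minus strand), a chemokine receptor of type 1 cells, reached 6.98 and 93.3 CPM. Each of these was higher in dendritic cells than in any other annotated cell type of the same library. Ccr7 (ENSMUSG00000037944, chromosome 11, 99144196 to 99155077, minus strand) was second to B cells on both days, at 207 against 342 CPM at day 2 and 141 against 367 CPM at day 7.

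The genes that most separated dendritic cells from all other cells were ranked by the smaller of their ratios in both libraries. Cd209d, a relative of Cd209a, led at 262 times the level of the other cells at day 2 and 633 times at day 7. Cd209a and Ccl22, a chemokine that attracts regulatory T cells, came next, followed by Kmo, an enzyme of tryptophan breakdown. The 15 leading genes also held H2-Oa and H2-DMb2, chains that tune peptide loading of MHC class II, and Spib and Bcl11a, transcription factors of plasmacytoid and lymphoid cells. Gpr171, P2ry10, Siglecg, Il4i1, Siglech, Flt3 and Ccr7 completed them. These genes describe the annotated cells and were partly what the annotation itself was built on.

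Depth differed between the days. The median dendritic cell had 12015.5 counts at day 2 and 6151 at day 7. It had 2952.5 and 2015 detected genes, and the totals over these cells were 2147536 and 1039265 counts. The libraries shared 4 called barcodes, none of them dendritic. The 8 fibro-adipogenic progenitor markers summed to 280 and 437 CPM in dendritic cells at day 2 and day 7, with at least 3 counts in 82 of 170 and 74 of 145 cells, and the 8 endothelial markers to 66.6 and 139 CPM. Markers of lymphocytes, granulocytes and mast cells were lower. The summed level of 7 B cell markers was 6.05 and 17.3 CPM, that of 10 T or NK cell markers reached 19.2 CPM at day 7, that of 8 neutrophil markers 24.7 and 4.81 CPM, and that of 8 mast cell or basophil markers 0.466 and 0.962 CPM at day 2 and day 7. Of these markers 5 and 2 of the B cell list, 9 and 4 of the T or NK list, 1 and 7 of the neutrophil list and 7 and 7 of the mast cell list had no count at day 2 and day 7. The Langerhans cell marker Cd207 was at 0 on both days, whereas Epcam, which that cell type also carries, held 2 and 30 counts. Transcripts of muscle fibers were higher at day 7, with the 9 myofiber markers at 54.5 and 627 CPM. In barcodes of 1 to 100 counts, which hold free RNA, the myofiber markers were at 717 and 25176 CPM, the fibro-adipogenic ones at 1151 and 12496 CPM and the endothelial ones at 896 and 2076 CPM. The results below use uncorrected counts. With SoupX values, which are corrected for free RNA, the ratios of 4 of 112 named genes moved outside their counting interval. What part of these transcripts remains after that correction was not tested.

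The share of dendritic cells was 5.35% (4.59 to 6.19) of 3178 cells at day 2 and 4.54% (3.84 to 5.32) of 3196 cells at day 7. The later share was thus -0.812 points from the earlier one (-1.90 to 0.274). It was -1.63 points (-2.88 to -0.389) from it with stricter limits on cells and -2.33 points (-3.61 to -1.09) without neutrophils. Among monocytes, macrophages and dendritic cells alone, the direction was the opposite, with 11.6% (10.0 to 13.4) of 1462 cells at day 2 and 16.1% (13.7 to 18.6) of 902 cells at day 7. In that denominator annotated monocytes and macrophages numbered 1292 at day 2 and 757 at day 7.

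The make-up of the dendritic cells differed between the days. A cell was counted as holding a subset's core when it had at least 2 counts over 3 or 4 genes, namely Xcr1, Clec9a and Cadm1 for type 1, Cd209a, Clec10a and Mgl2 for type 2, Ccr7, Fscn1 and Ccl22 for migratory, and Siglech, Ccr9, Klk1 and Cox6a2 for plasmacytoid cells. The plasmacytoid core was held by 5.29% (2.45 to 9.81) of dendritic cells at day 2 and 26.9% (19.9 to 34.9) at day 7, which is 21.6 points more (13.3 to 30.1). The type 1 core was held by 7.65% (4.13 to 12.7) and 24.8% (18.0 to 32.7), 17.2 points higher at day 7 (8.70 to 25.8). The type 2 core went the other way, with 67.1% (59.4 to 74.1) and 50.3% (41.9 to 58.7) of cells, and here the day 7 share minus the day 2 share was -16.7 points (-27.7 to -5.38).

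Depth entered these shares, so every cell was also thinned to 2000 counts, which left out 1 cell at day 7. The plasmacytoid core was then held by 3.53% at day 2 and 22.2% at day 7, the type 1 core by 0.588% (1 of 170) and 10.4% (15 of 144), and the type 2 core by 39.4% and 27.8%. All 3 kept their direction, with intervals of the difference that left out 0, for the type 2 core only narrowly (-11.6 points, -22.2 to -0.686). The migratory core did not: it was held by 26.5% (45 of 170) and 15.9% (23 of 145) of cells with all counts, but by 10.0% (5.93 to 15.5) and 10.4% (5.95 to 16.6) after thinning. No difference in the migratory share was therefore detectable at equal depth.

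**Figure D1:**
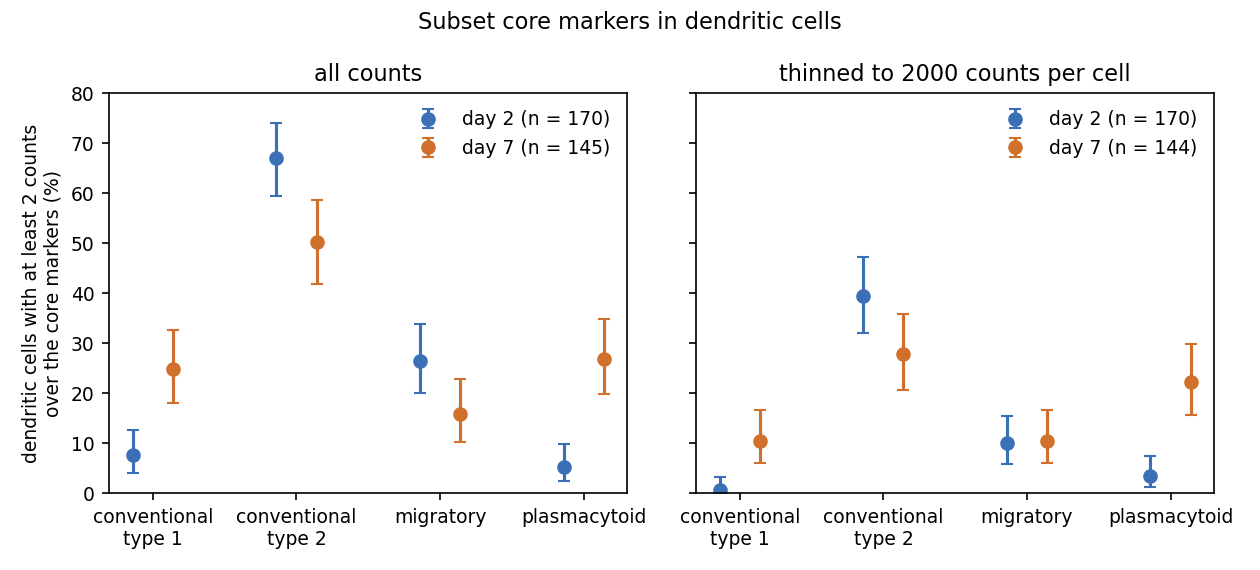
Share of annotated dendritic cells, in percent, with at least 2 counts over the core markers of each subset, for all counts (left) and for cells thinned to 2000 counts (right). Points are 1 library each and bars are 95% exact binomial intervals for counting error. The plasmacytoid and type 1 shares sit higher at day 7 in both panels, and the migratory shares are 10.0% and 10.4% after thinning.

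The cores were also found in other cell types. In annotated monocytes and macrophages, of median depth 11696 at day 2 and 8546 at day 7, the plasmacytoid core was held by 0.464% and 0.925% and the migratory core by 0.387% and 1.19% of cells. The type 2 core was held by 13.1% of these cells at day 2 and 9.91% at day 7. The type 1 core was held by 0.387% and 10.4% of them, and without Cadm1, an adhesion molecule also found in nerve and other cells, by 0% of 1292 cells and 1.45% of 757. Fscn1, an actin-bundling protein, is widely expressed in stromal cells, and the migratory core was held by 51.6% of fibro-adipogenic progenitors at day 2, but by 0 of 215 once Fscn1 was left out. In B cells, which carry Ccr7, it was held by 8 of 29 cells at day 2 (27.6%) with or without Fscn1, beside 26.5% of dendritic cells. Cox6a2 is a subunit of cytochrome oxidase in muscle. At day 7 the plasmacytoid core was held by 70 of 76 type IIb myonuclei, 19 of 20 type IIx myonuclei and 55 of 175 myoblasts or progenitors. With Cadm1, Mgl2, Fscn1 and Cox6a2 left out of their cores, the dendritic shares became 7.65% (13 of 170) and 29 of 145 for type 1, 62.9% and 48.3% for type 2, 26.5% and 15.9% for migratory, and 5.29% and 25.5% for plasmacytoid cells.

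The cores overlapped. At day 2, 31 of 170 cells held both the type 2 and the migratory core, and at day 7, 25 of 145 held both the type 2 and the plasmacytoid core, out of 39 cells with the plasmacytoid core. More than 1 core was held by 40 cells on each day, and none by 29 and 17. Cells with the type 2 core alone numbered 75 at day 2 and 36 at day 7. The cores thus describe ranges of marker counts rather than exclusive types.

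For comparisons over all genes, counts were summed over the dendritic cells of a library, scaled to CPM, and set as a ratio of day 7 to day 2. A gene was tested when either library had at least 100 counts of it, found in 20% or more of that library's dendritic cells. Of 2878 such genes, 475 differed at least 2-fold (16.5%). Of these, 136 were higher at day 7 (4.73%) and 339 were lower (11.8%), and each count of list members below is to be read against these shares. The filter shapes such counts, because a gene that passed on 1 day alone tends to be the higher on that day. Of 48 genes that passed at day 7 only, 47 were higher. Of 1586 that passed at day 2 only, where the depth was greater, 248 were lower and 1 was higher. Of 1244 that passed on both days, 88 were higher (7.07%) and 91 lower (7.32%). Counts and medians over the tested members of a list are therefore descriptions, and the members that passed on both days are counted apart where the difference matters. In barcodes of free RNA, 70 of the 2878 genes were above their dendritic level on both days, among them 12 of the 136 higher and 23 of the 339 lower genes. The median log2 ratio of all genes tested was -0.25, and list medians are to be read against it. When that median ratio was set to 1, 219 genes were higher and 204 lower, 51.8% of the calls in place of 28.6% being higher, and the medians of the chemokine, cytokine receptor, costimulation and monocyte lists turned from below to above 0. No other list median changed its sign. A summed level cannot tell fewer cells with a transcript from less transcript per cell, so the percentage of cells with a count is given where it bears on a gene.

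The 12 plasmacytoid genes summed to 1017 CPM at day 2 and 3731 CPM at day 7, whether or not they passed the filter. Of 8 in the genes tested, 5 passed at day 7 only, Siglech, Ccr9, Spib and Runx2 among them, so the filter in large part set that these 5 were higher. Of the 3 that passed on both days, Bst2 and Ly6c2 were at least 2-fold higher and Tcf4 was not. Siglech, a surface lectin of plasmacytoid cells, reached 32.6 CPM (25.4 to 41.2) at day 2, with a count in 6.47% of cells, and 354 CPM (319 to 392) at day 7, with a count in 27.6%. Ccr9, a receptor for the gut chemokine Ccl25, went from 14.4 CPM (9.81 to 20.5) to 287 CPM (255 to 321). Siglech was thus 10.9 times and Ccr9 19.9 times its day 2 level, with intervals far apart.

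Klk1, a tissue kallikrein, had 2 counts among day 2 cells against 114 among day 7 cells. Its log2 ratio was 6.88 (4.99 to 9.94), or 6.30 with the 2 counts taken as 3, and it came from 11.7% of the day 7 cells. Ly6d and Pacsin1, further plasmacytoid markers, were at 35.4 and 8.38 CPM at day 2 against 176 and 72.2 CPM at day 7. Tcf4, the transcription factor that specifies plasmacytoid identity, was at 217 and 372 CPM, short of 2-fold, and was found in 64.1% and 57.2% of cells. Spib and Runx2, which act with it, were at 24.7 and 31.2 CPM at day 2 and at 146 and 128 CPM at day 7. Bst2, also called tetherin and induced by interferon, was at 486 and 1358 CPM. Cox6a2 was at 4.19 and 68.3 CPM, beside 13.4 and 182 CPM in barcodes of free RNA.

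None of the 3 type 1 core genes was among the genes tested. Xcr1 held 15 counts at day 2 and 97 at day 7, and was found in 3.53% and 18.6% of cells. Clec9a, a receptor for exposed actin of dead cells, held 39 and 87 counts, in 15.9% and 30.3% of cells. Cadm1 held 5 and 71 counts. The log2 ratios of Clec9a and Cadm1 were 2.20 (1.64 to 2.79) and 4.87 (3.59 to 6.54) here, beside 4.30 (3.09 to 5.81) and 4.31 (3.75 to 4.91) in monocytes and macrophages.

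Of the 13 genes of the wider type 1 list, 5 were tested, and all 5 passed on both days. Irf8 and Ppt1 were at least 2-fold higher and none was lower. Irf8, the transcription factor required by type 1 and plasmacytoid cells, was at 191 CPM (173 to 210) at day 2 and 1432 CPM (1360 to 1506) at day 7. Ppt1, a lysosomal thioesterase, was at 98.7 and 359 CPM. Wdfy4, needed for cross-presentation, was at 179 and 274 CPM. Batf3, the partner of Irf8 in type 1 cells, was at 38.6 CPM (30.8 to 47.9) and 93.3 CPM (75.7 to 114). In monocytes and macrophages Irf8 was at 104 and 428 CPM and Batf3 at 7.40 and 61.4 CPM. The log2 ratios of Irf8 and Batf3 were 2.04 and 3.05 there, beside 2.91 and 1.27 in dendritic cells. Without cells that held the plasmacytoid or type 1 core, the dendritic log2 ratios were 1.75 and 1.54.

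The 13 type 2 genes summed to 2794 CPM at day 2 and 1837 CPM at day 7. Of 10 tested, 4 were at least 2-fold lower, namely Itgam, Mgl2, Tnip3 and Clec4a2, and these were the 4 that passed at day 2 only. None of the 6 that passed on both days differed 2-fold. Mgl2 and Clec10a, lectins that bind galactose-type sugars, were at 287 and 413 CPM at day 2 and at 69.3 and 230 CPM at day 7. Cd209a did not follow them, with a log2 ratio of 0.07 (-0.10 to 0.24), although it was found in 54.1% of cells at day 2 and 41.4% at day 7. Itgam, an integrin chain shared with monocytes, was at 288 and 30.8 CPM. Sirpa, a signal-regulatory receptor, was at 235 and 130 CPM, and Irf4, the transcription factor of type 2 cells, held 61 and 42 counts, 28.4 (21.7 to 36.5) and 40.4 (29.1 to 54.6) CPM.

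In the cells that held the type 2 core alone, the pattern was different. Cd209a was at 536 CPM on the earlier day and 1368 CPM on the later one, for a log2 ratio of 1.35 (1.15 to 1.55). Clec10a was at 478 and 661 CPM and Mgl2 at 420 and 232 CPM. The class II chain H2-Aa was at 8744 and 13922 CPM. These genes define or accompany the selection, so the values are descriptive.

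Migratory genes were mixed. Of 16 genes listed, 6 were tested, of which Ccl5, which passed at day 7 only, and Tmem123 were at least 2-fold higher and none lower. Ccr7 was at 207 CPM (188 to 227) at day 2 and 141 CPM (120 to 166) at day 7, in 29.4% and 16.6% of cells, but its log2 ratio turned from -0.55 to 0.27 without cells that held the plasmacytoid or type 1 core. Ccl22 was at 64.7 CPM (54.4 to 76.4) and 171 CPM (147 to 198), but came from 8.24% and 11.7% of cells. Fscn1 came from 3.53% and 6.90% of cells, at 41.0 and 74.1 CPM, and its log2 ratio turned from 0.85 to -0.15 when per-cell CPM values were averaged. Il12b, a subunit of interleukin 12, which drives type 1 T cell responses, held 0 counts at day 2 and 48 at day 7, which is 33.1-fold higher with the 0 counts taken as 3. Of those, 41 counts lay in the 14 day 7 cells that held the migratory core alone.

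Among the genes of dendritic cells in general, 5 of 9 were tested and 2 were at least 2-fold higher at day 7. Flt3 was found in 47.1% of cells at day 2 and 73.1% at day 7, with levels of 79.6 CPM (68.1 to 92.5) and 241 CPM (212 to 272). Id2, a transcriptional regulator needed for conventional cells, was at 183 and 488 CPM. Zbtb46, a transcription factor of conventional dendritic cells, held 32 and 20 counts, a log2 ratio of 0.37 (-0.51 to 1.22). Itgax, the integrin CD11c, was at 83.8 and 120 CPM.

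Clustering divided the 315 cells into 8 clusters, most of them drawn mainly from 1 library. Since there is 1 library per day, such a cluster may be that library and not a cell type. Cluster 6, with 3 cells at day 2 and 32 at day 7, was plasmacytoid-like and led by Ly6d, Ccr9 and Siglech. Cluster 7, with 4 and 31 cells, was conventional type 1-like and led by Xcr1. Cluster 4, with 19 and 12 cells, was migratory-like and led by Fscn1, Ccl5 and Ccl22. The other clusters stayed unnamed.

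Cluster 1 (52 cells at day 2, 1 at day 7) was led by Dmkn and Rgcc, and cluster 2 (46 and 3) by Fn1, Thbs1, Mgl2 and Mrc1, of which Fn1 and Thbs1 are monocyte markers and Mrc1 a macrophage marker. The type 2 core was held by 86.8% and 79.6% of their cells. In cluster 2 Flt3 was found in 12.2% of cells at 9.29 CPM, the lowest among the 8 clusters, whereas H2-Aa stood at 10925 CPM. Of the annotated dendritic cells, those of cluster 2 thus carried the least Flt3.

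Cluster 3 (20 and 4 cells) was led by Ifi205, Gatm and Cpox. It shared a high level of Cst3, the inhibitor cystatin C, at 22034 CPM with cluster 7 at 19994 CPM, and held Wdfy4 at 627 CPM and Irf8 at 637 CPM, but Xcr1 at 20.7 CPM, against 297 CPM in cluster 7. Cluster 5 (24 and 10 cells) was led by Apod, Cd7 and Hspb1 and held Siglech at 154 CPM and Tcf4 at 819 CPM. The type 1 core was held by 11 of the 24 cells of cluster 3 (45.8%), beside 26 of 35 in cluster 7, and the plasmacytoid core by 13 of the 34 cells of cluster 5 (38.2%), beside 34 of 35 in cluster 6, so the named clusters did not hold all cells with these cores. Cluster 8 (2 and 52 cells), led by Egr1, Tnf and Sirpb1a, held the highest levels of Cd209a, at 827 CPM, and of Cx3cr1, at 91.3 CPM, and its C1qa level was 214 CPM. The type 2 core was held by 62.9% of the cells of cluster 6 as well, where Cd209a stood at 192 CPM. Class II expression was uneven, with H2-Aa at 13334 CPM in cluster 8 and 984 CPM in cluster 6.

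**Figure D2:**
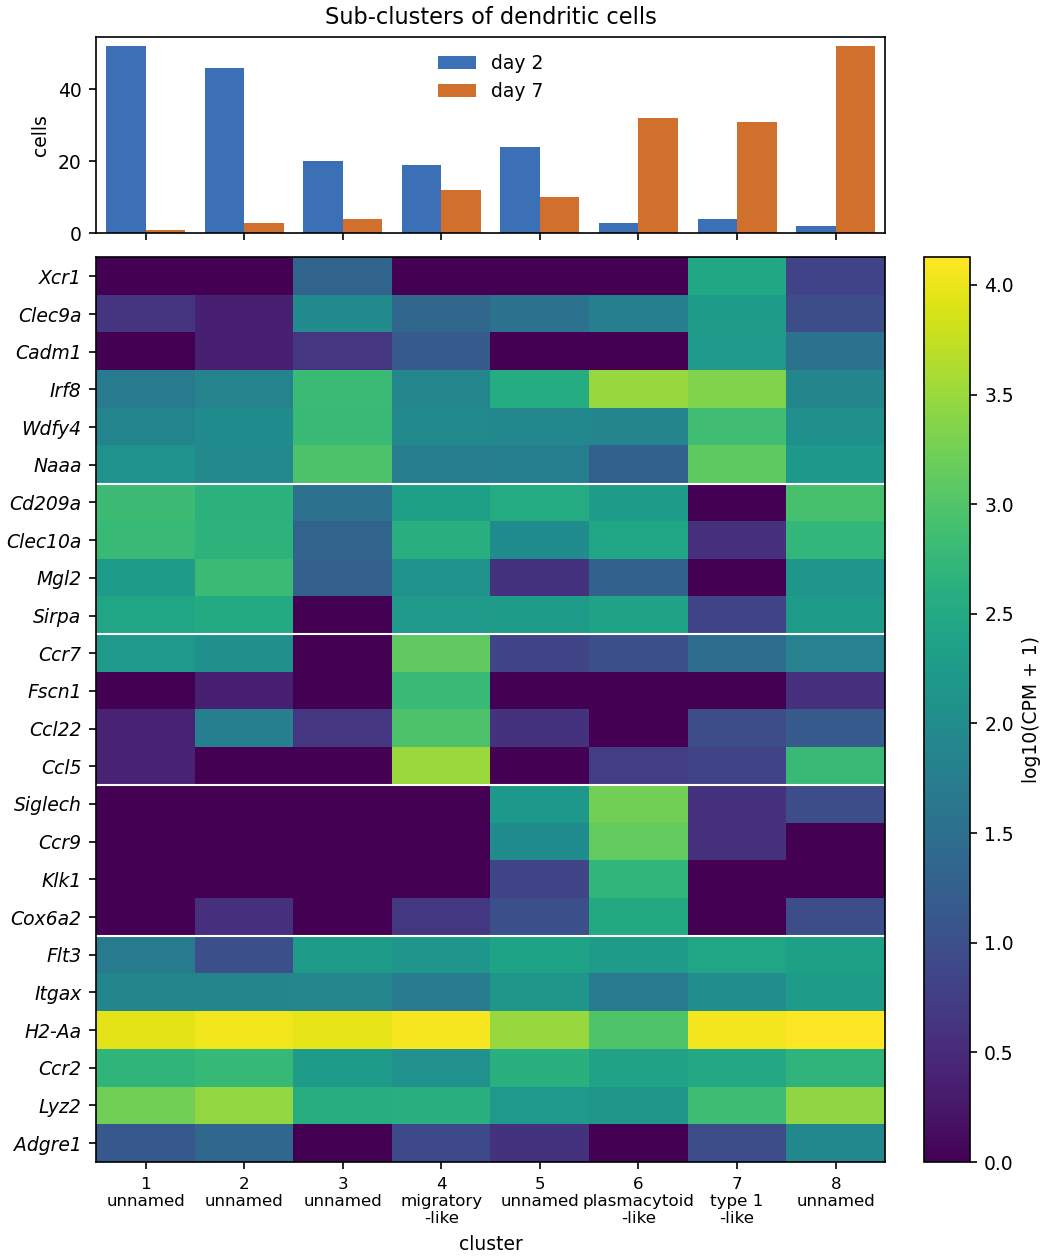
Number of cells from each library (top) and level of 24 genes on a log10(CPM + 1) scale (bottom) in the 8 clusters of dendritic cells. White lines separate type 1, type 2, migratory, plasmacytoid and other genes. Clusters 1 to 3 are mostly day 2 cells and clusters 6 to 8 mostly day 7 cells, and Siglech and Ccr9 are concentrated in cluster 6.

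Over all dendritic cells, the genes furthest from equality included several that are in none of the subset lists. Ccl5, a chemokine for T cells and monocytes, is in the migratory list, and at day 7 it was at 962 CPM (903 to 1024) against 49.4 CPM (40.4 to 59.7) at day 2. The nonclassical class I genes H2-Q6, H2-Q4 and H2-Q7 were at 183, 112 and 522 CPM against 10.2, 12.1 and 66.1 CPM. These H2-Q genes are near-identical copies, so their individual counts are uncertain. In monocytes and macrophages the log2 ratios of H2-Q6, H2-Q4 and H2-Q7 were 5.37, 3.40 and 3.22, beside 4.16, 3.20 and 2.98 in dendritic cells. That of Ccl5 was 5.62 there and 4.28 in dendritic cells. Klf2 and Egr1, transcription factors of quiescence and of immediate early signaling, were at 407 and 184 CPM against 47.5 and 23.7 CPM. In barcodes of free RNA Egr1 was at 197 CPM at day 2 and 496 CPM at day 7, above its dendritic level on both days. Klf2 was there at 122 and 259 CPM, above its dendritic level at day 2 but not at day 7. The long noncoding transcript AW112010 and the receptor Cd300c were also among the 12 highest.

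Apoe, an apolipoprotein that macrophages make in quantity, was at 16.8 CPM at day 2 and 290 CPM at day 7, and in barcodes of free RNA at 713 and 9534 CPM. Its log2 ratio was 4.11, or 4.97 with SoupX values, beside 4.03 in monocytes and macrophages.

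Timp1, an inhibitor of matrix proteases, held 1053 counts in the day 2 cells and 1 in the day 7 cells, for a log2 ratio of -8.99 (-14.30 to -6.51), or -7.41 with that 1 count taken as 3. Ifitm1, an interferon-induced membrane protein, was at 1181 CPM (1135 to 1228) at day 2 and 29.8 CPM (20.3 to 42.3) at day 7. Adora2b, an adenosine receptor, held 244 and 2 counts, and Thbs1 and Pgf, a matrix glycoprotein and a relative of the vascular growth factor, held 232 and 148 counts at day 2 and 1 each at day 7. Thbs1 stood at 933 and 60.0 CPM in barcodes of free RNA, above its dendritic level on both days. At day 2, Timp1 was found in 56.5% of cells, Ifitm1 in 74.7% and Adora2b in 58.8%.

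Clec4e, a receptor for damaged cells and mycobacterial lipid, held 148 counts at day 2 and none at day 7, beside 207 and 4.03 CPM in free RNA. With the 0 counts taken as 3, its level was 23.9-fold lower on the later day. With the counts as they are, the interval of its log2 ratio ended at -4.26. Its relative Clec4n was at 128 and 6.74 CPM. Wnt11, a secreted Wnt ligand, was at 162 and 10.6 CPM. Dmkn, Flrt3, Fn1 and Cst7 completed the 12 lowest ratios. Several of these genes also differed in monocytes and macrophages, where the log2 ratio was -6.21 for Timp1, -5.32 for Thbs1 and -4.26 for Wnt11. Cst7, cystatin F, went the other way there, with 1.30 (0.83 to 1.78) beside -3.95 (-5.85 to -2.56) in dendritic cells.

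**Figure D3:**
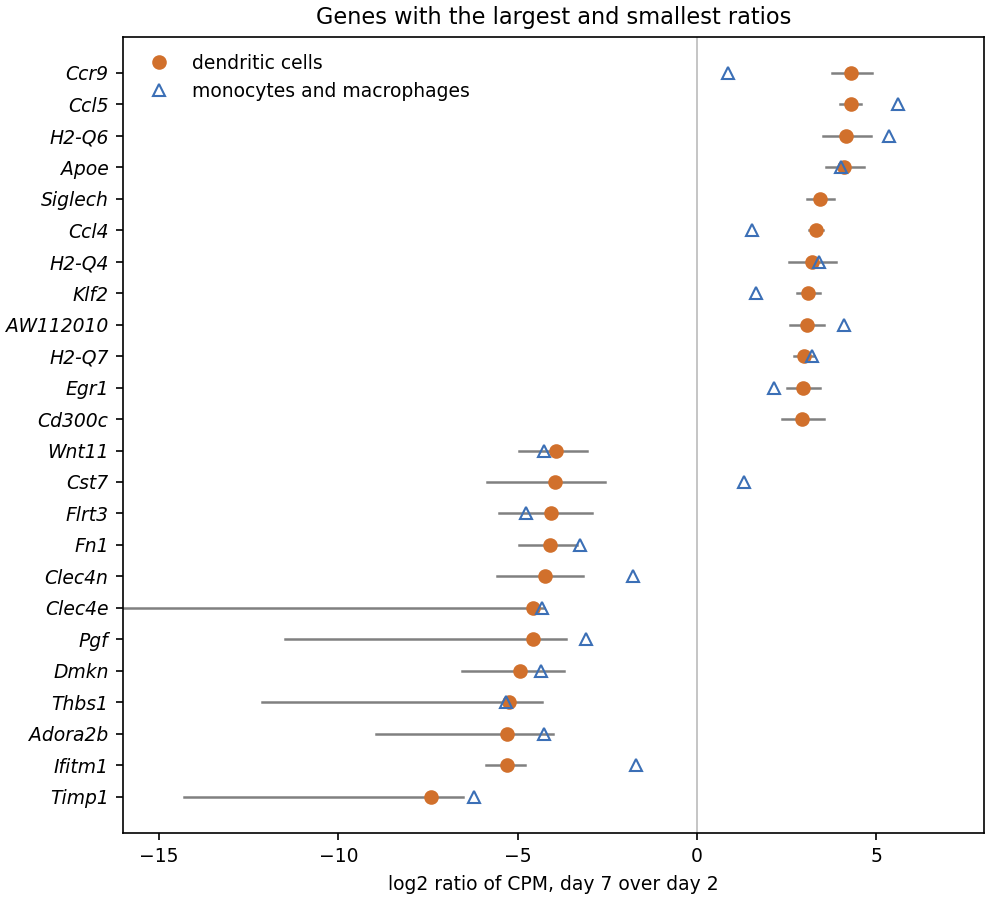
Log2 ratio of CPM, day 7 over day 2, for the 12 highest and the 12 lowest ratios in dendritic cells (points, with 95% counting intervals as lines and counts under 3 taken as 3), beside monocytes and macrophages (triangles, absent where a library held under 3 counts). The interval of Clec4e runs past the left edge. Ccr9 stands at 4.31 in dendritic cells and 0.87 in monocytes and macrophages, and Cst7 at -3.95 and 1.30.

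Among genes for presentation on MHC class II, the chains of I-A and I-E were nearly level, whereas others differed in either direction. Of 15 genes, 11 were tested, 1 was at least 2-fold higher at day 7 and 1 lower, and the median log2 ratio was 0.01, or 0.27 above that of all genes. H2-Aa (chromosome 17, 34282744 to 34287823, minus strand), the alpha chain of I-A, was at 9094 CPM (8967 to 9223) at day 2 and 9709 CPM (9520 to 9900) at day 7. H2-Ab1, its beta chain, was at 9532 and 9630 CPM, and Cd74, the invariant chain, at 17561 and 22519 CPM. H2-Eb1 of I-E was at 8028 and 9131 CPM.

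In monocytes and macrophages most of these genes stood higher at day 7, but Ifi30 did so only slightly, with a log2 ratio of 0.15 (0.10 to 0.19). H2-Aa was there at 621 and 7800 CPM, with a log2 ratio of 3.65, and Ciita, the transactivator of class II genes, went from 14 counts to 400. The list median in monocytes and macrophages was 2.94. In dendritic cells Ciita held 60 and 82 counts, 27.9 (21.3 to 36.0) and 78.9 (62.8 to 97.9) CPM. The gap between dendritic cells and these cells in H2-Aa, wide at day 2, was small at day 7. The chains H2-Oa and H2-DMb2 stayed apart at day 7, at 140 and 75.1 CPM in dendritic cells and 3.32 and 7.31 CPM in monocytes and macrophages. H2-Oa, an inhibitor of peptide exchange, was the 1 gene at least 2-fold higher at day 7, having passed on that day only, with 42.8 CPM (34.5 to 52.5) and 140 CPM (119 to 165). Ifi30, a thiol reductase of the lysosome, was the 1 lower, at 2013 and 873 CPM, though short of 2-fold without cells that held the plasmacytoid or type 1 core (-0.75). H2-DMb1 and H2-DMb2 had log2 ratios of -0.70 (-0.82 to -0.57) and -0.55 (-0.94 to -0.18).

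**Figure D4:**
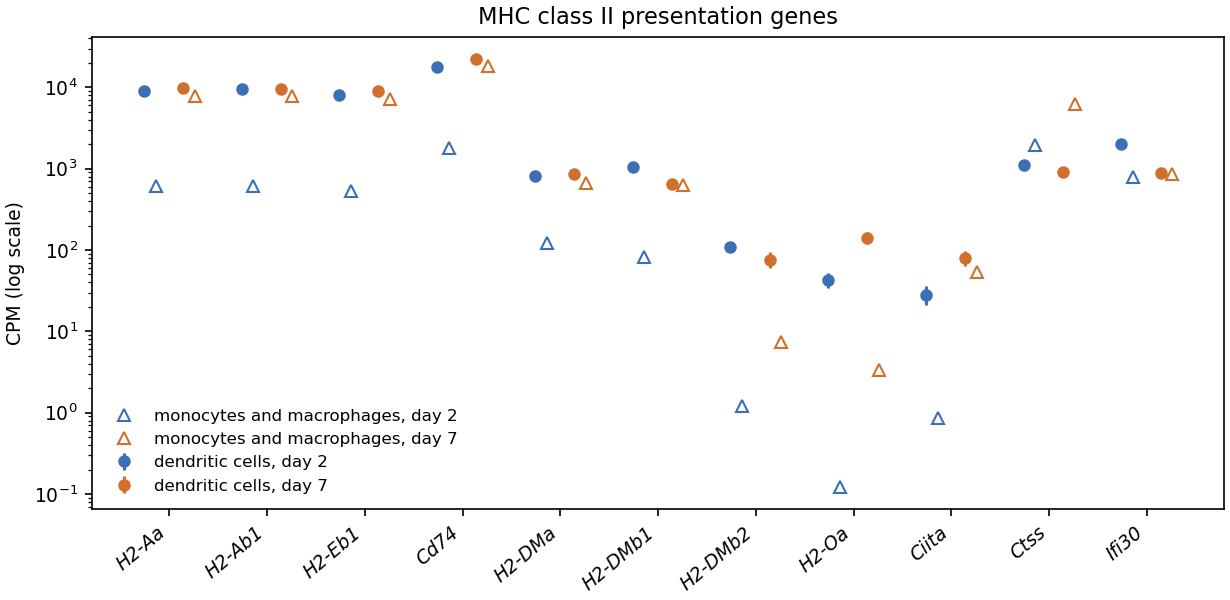
CPM on a log axis of 10 of the 11 tested class II presentation genes, all but Cd83, and of Ciita, in dendritic cells (filled points, with 95% Poisson intervals, mostly smaller than the points) and in monocytes and macrophages (open triangles), at day 2 and day 7. The dendritic points of H2-Aa, H2-Ab1 and H2-Eb1 nearly coincide between days, while the triangles sit far lower at day 2 than at day 7. The day 2 triangle of H2-Oa rests on 2 counts.

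The promoters of class II genes share a Y box, the sequence ATTGG or its reverse complement CCAAT, through which factor NF-Y binds beside the X boxes that recruit Ciita. The 100 bases before the RefSeq start (GRCm38.p6) are shown for H2-Aa (chr17:34287824-34287923, minus strand), for H2-Eb1 (chr17:34305767-34305866, plus strand), which was level as well, and for H2-DMb1 (chr17:34153091-34153190, plus strand), a peptide-loading chain that was at 1043 CPM (1000 to 1087) at day 2 and 644 CPM (596 to 694) at day 7. Capitals mark ATTGG or CCAAT.
H2-Aa: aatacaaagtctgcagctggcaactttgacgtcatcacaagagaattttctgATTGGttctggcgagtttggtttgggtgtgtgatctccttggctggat
H2-Eb1: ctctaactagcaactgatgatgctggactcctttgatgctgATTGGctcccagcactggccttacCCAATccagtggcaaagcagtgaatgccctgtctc
H2-DMb1: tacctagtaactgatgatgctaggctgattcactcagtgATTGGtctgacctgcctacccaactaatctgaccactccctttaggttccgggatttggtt
The motif began 48 bases before the start in H2-Aa, 59 and 35 bases before it in H2-Eb1 and 61 bases before it in H2-DMb1. Among 32851 promoters in the same table, 18.9% held it on either strand in this window. A match is a description of the letters and not of binding.

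Genes of MHC class I and cross-presentation were higher at day 7 in part. Of 14 tested, all of which passed on both days, 3 were at least 2-fold higher and 2 lower, against 7.07% and 7.32% of all genes that did so. The median log2 ratio was 0.53. B2m, the class I light chain, was at 1301 CPM (1253 to 1350) and 2686 CPM (2587 to 2787), and Cybb, the oxidase chain that slows antigen degradation in phagosomes, at 231 and 547 CPM. The third was H2-Q7. The 2 lower genes were the folding chaperones Calr, at 1473 and 566 CPM, and Canx, at 360 and 176 CPM. When per-cell CPM values were averaged, the log2 ratios of Canx (-0.86) and B2m (0.99) fell short of 2-fold. That of Canx also did so when the median ratio of all genes was set to 1 (-0.78). H2-K1, a classical class I heavy chain, was at 1215 and 2390 CPM, just short of 2-fold.

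Costimulatory and checkpoint genes differed one by one. Of 6 tested, only Tnfsf9, the ligand of 4-1BB, was at least 2-fold higher at day 7, at 50.8 and 108 CPM, and none was lower. The log2 ratio of Tnfsf9 was 1.09, but 0.96, short of 2-fold, when per-cell CPM values were averaged. Cd86 was at 182 CPM (164 to 201) at day 2 and 95.3 CPM (77.4 to 116) at day 7, and was found in 76.5% and 34.5% of cells, with a log2 ratio of -0.93 (-1.27 to -0.61). Cd48, a ligand of T and NK cells, was at 211 and 190 CPM. Cd40 was at 54.9 and 57.7 CPM. Cd80, which was below the filter and is named after its values were seen, held 98 counts at day 2 and 5 at day 7.

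Chemokines were divided, and their median log2 ratio of -0.24 became 0.47 without cells that held the plasmacytoid or type 1 core. Of 8 tested, 3 were at least 2-fold higher at day 7, namely Ccl5, Ccl4 and Ccl3, and 4 were lower, namely Cxcl2, Ccl2, Ccl9 and Ccl6. Of the 4 that passed on both days, Ccl4 was higher and Ccl6 and Ccl9 lower. Without cells that held the plasmacytoid or type 1 core, Ccl2 and Ccl9 were no longer 2-fold lower, with log2 ratios of -0.31 and -0.30 in place of -1.27 and -1.11. Ccl9 was also short of 2-fold when the median ratio of all genes was set to 1 (-0.86) and when per-cell CPM values were averaged (-0.90). Ccl4, a chemokine that attracts monocytes and T cells, was at 121 CPM (107 to 137) at day 2 and 1206 CPM (1140 to 1274) at day 7, and Ccl3 at 35.9 and 240 CPM. Ccl4 was highest in the plasmacytoid-like cluster 6, at 2540 CPM, and Ccl5 in the migratory-like cluster 4, at 3242 CPM. Cxcl2, a neutrophil attractant, was at 166 and 63.5 CPM, and Ccl2, the ligand of Ccr2, at 95.5 and 39.5 CPM. In barcodes of free RNA both were far higher and lower at day 7 as well, Cxcl2 at 1468 and 189 CPM and Ccl2 at 1125 and 100 CPM. With SoupX values, which are corrected for free RNA, the log2 ratio was -1.09 for Cxcl2, in place of -1.39. That of Ccl2 was then -0.81, short of 2-fold. Free RNA left after that correction was not tested. Cxcl9, a chemokine induced by interferon gamma that was below the filter and is named after its values were seen, held 54 counts at day 2 and 125 at day 7, and stood at 328 CPM in cluster 7.

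The 16 receptors for chemokines and lipid signals summed to 1518 CPM at day 2 and 1217 CPM at day 7. Of 8 tested, 5 were at least 2-fold lower, all of which passed at day 2 only, and the 1 higher, Ccr9, passed at day 7 only, so the filter in part set these counts. Ccr1, a receptor of inflammatory chemokines, was at 97.3 CPM (84.6 to 111) and 18.3 CPM (11.0 to 28.5), and Ltb4r1, a leukotriene B4 receptor, at 217 and 46.2 CPM. Cxcr4 and Gpr183, which retain cells in tissue and guide them within lymphoid organs, were at 244 and 132 CPM against 92.4 and 54.8 CPM. Ccr2, the receptor for entry from blood, was near level at 432 and 357 CPM.

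The 20 cytokines summed to 2691 CPM at day 2 and 1428 CPM at day 7. Of 6 tested, 3 passed at day 2 only, and these, Vegfa, Osm and Il1rn, were at least 2-fold lower. Of the 3 that passed on both days, Il1b was lower, Spp1 higher and Tgfb1 neither. Il1b, a pyrogenic cytokine, was at 2145 CPM (2084 to 2208) at day 2 and 649 CPM (601 to 700) at day 7, and was found in 84.7% and 38.6% of cells. Vegfa, Osm and Il1rn, a vascular growth factor, oncostatin M and the interleukin 1 receptor antagonist, were at 59.6, 68.9 and 59.6 CPM against 15.4, 21.2 and 27.9 CPM. Il1rn stood at 290 and 37.5 CPM in free RNA. Spp1, osteopontin, was at 80.1 CPM (68.6 to 93.0) and 167 CPM (143 to 194), but was found in fewer cells at day 7. Without cells that held the plasmacytoid or the type 1 core, its log2 ratio was -1.51 in place of 1.06. In free RNA Spp1 was at 1338 and 991 CPM. With SoupX values its log2 ratio was 1.77, and when per-cell CPM values were averaged it was 0.71, short of 2-fold.

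Among 12 cytokine receptors tested, 2 were at least 2-fold higher at day 7, Flt3 and Il10ra, and 3 were lower. Of the 8 that passed on both days, 2 were higher and 1 lower. The lower ones were Il1r2, the decoy receptor of interleukin 1, at 141 CPM (126 to 158) and 11.5 CPM (5.97 to 20.2), Csf1r, the macrophage growth factor receptor, at 129 and 40.4 CPM, and Csf2rb, the shared chain for GM-CSF, at 394 and 177 CPM. Csf1r went the other way in monocytes and macrophages, with a log2 ratio of 1.18 there and -1.67 (-2.17 to -1.20) in dendritic cells.

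The 24 pattern recognition receptors in the table summed to 2219 CPM at day 2 and 1212 CPM at day 7. Of 9 tested, 6 passed at day 2 only, and 5 of these were at least 2-fold lower, a count that the filter in part set. Of the 3 that passed on both days, Cd14 was lower, Clec12a higher and Cd209a neither. Cd14, a coreceptor for bacterial lipopolysaccharide, was at 821 CPM at day 2 and 127 CPM at day 7, Tlr2, a sensor of lipopeptides, at 169 and 56.8 CPM, and Mrc1, the mannose receptor, at 202 and 28.9 CPM. The other lower ones were Nlrp3, Clec4e and Clec4n. In free RNA Cd14 was at 772 and 143 CPM, close to its dendritic level. Clec12a, an inhibitory lectin that plasmacytoid and type 1 cells carry, was at 50.8 CPM (41.7 to 61.2) and 156 CPM (133 to 182). Without cells that held the plasmacytoid or type 1 core, its log2 ratio was 1.72 in place of 1.62. In monocytes and macrophages it was 1.98.

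Of 5 macrophage genes tested, 3 passed at day 2 only and were at least 2-fold lower, and Apoe passed at day 7 only and was higher. Cd68 passed on both days and was lower, only just past 2-fold at a log2 ratio of -1.004. The summed level of all 12 markers was 942 CPM at day 2 and 909 CPM at day 7. Single cells held up to 80 of these counts at day 2 and 116 at day 7, with medians of 7 and 3. The 12 monocyte markers summed to 3789 and 4151 CPM, with 3 of 8 tested at least 2-fold lower, all passing at day 2 only, Fn1 and Thbs1 among them, and Ly6c2 and Nr4a1, which passed on both days, higher. The part of cells with such markers in these differences was not tested.

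Transcription factors included many subset regulators. Of 22 tested, 9 were at least 2-fold higher at day 7, against 4.73% of all genes, and 2 were lower. Among the 18 that passed on both days, 7 were higher and 1 lower, against 7.07% and 7.32% of all such genes. Klf2, Egr1, Irf8, Irf1, Nr4a1, Id2, Bcl11a and Irf7 were among the higher ones, and Nfil3, which promotes type 1 development, and Cebpb, a myeloid factor of inflammation, were lower, at 213 and 513 CPM against 79.9 and 210 CPM. Nfkb1 was at 531 and 286 CPM. Bhlhe40 and Nr4a3 were level, with log2 ratios of 0.01 (-0.17 to 0.20) and -0.02 (-0.20 to 0.16).

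Of 7 interferon-stimulated genes tested, 2 were at least 2-fold higher at day 7. Irf7, the factor that amplifies type I interferon, was 1 of them, at 192 and 434 CPM. Without cells that held the plasmacytoid or type 1 core, it was short of 2-fold, at a log2 ratio of 0.81. None of the 7 genes was 2-fold lower. Isg15, a ubiquitin-like modifier, was at 376 CPM (351 to 403) and 291 CPM (259 to 325), and Ifi205 at 89.4 and 54.8 CPM. The list as a whole had a median log2 ratio of 0.22.

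Of 4 cell cycle genes tested, none differed 2-fold. Tubb5, a tubulin, was at 244 and 395 CPM, Hmgb2, a chromatin protein, at 124 and 186 CPM, H2afz, a histone variant, at 1995 and 1492 CPM, and Pcna, the replication clamp, at 58.7 and 34.6 CPM. Mki67, a proliferation marker below the filter and named after its values were seen, held 25 and 32 counts.

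Proteases and uptake receptors of the endolysosome were near the median of all genes, at -0.29. Of 17 tested, 2 were at least 2-fold higher and 3 lower, and among the 14 that passed on both days 2 were higher and 1 lower, so the following are values of single genes. Ctsl, cathepsin L, and Fcgr2b, the inhibitory receptor for IgG, were higher, at 120 and 58.7 CPM at day 2 and 320 and 142 CPM at day 7. Fcgr1, the high-affinity IgG receptor, was at 144 CPM (129 to 161) and 24.1 CPM (15.6 to 35.5), Ctsd, cathepsin D, at 267 and 64.5 CPM, and Cd68 at 297 and 148 CPM. The log2 ratio of Cd68, -1.004, fell short of 2-fold with stricter limits on cells (-0.990) and without barcodes with other cell type markers (-0.975). It also did so when the median ratio of all genes was set to 1 (-0.75) and when per-cell CPM values were averaged (-0.89). In free RNA Ctsl was at 844 and 578 CPM and Ctsd at 870 and 787 CPM. Ctsl stood at 1387 CPM in the plasmacytoid-like cluster 6 and at 139 CPM or less in the others, and its log2 ratio was -0.19 in place of 1.42 without cells that held the plasmacytoid or type 1 core.

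The 18 genes of glycolysis and hypoxia summed to 3681 CPM at day 2 and 1528 CPM at day 7. Of 12 tested, 6 were at least 2-fold lower, none was higher, and all 12 had a ratio below 1. Of the 7 that passed on both days, 4 were lower. Relative to the median of all genes, Slc2a1 and Hif1a, at log2 ratios of -0.10 and -0.13, lay above it. Gapdh was at 752 CPM (716 to 790) and 177 CPM (152 to 205), Pkm, pyruvate kinase, at 814 and 223 CPM, and Slc16a3, the lactate exporter, at 81.5 and 10.6 CPM. Ldha and Pgam1 were at 660 and 295 CPM against 285 and 110 CPM. In monocytes and macrophages the list median was -1.19, beside -0.99 in dendritic cells.

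Immediate early and heat shock genes, which respond to tissue dissociation, were higher at day 7. Of 17 tested, 16 passed on both days, of which 10 were at least 2-fold higher and none lower, and Egr1, which passed at day 7 only, was higher too. The list had a median log2 ratio of 1.41 in dendritic cells and 0.80 in monocytes and macrophages. Hspa1a and Hspa1b, inducible heat shock proteins, were at 1611 and 901 CPM at day 2 and 9661 and 5988 CPM at day 7, and Jun, an immediate early factor, at 140 and 777 CPM. Nfkbia and Ier3 had ratios below 1, at 677 and 284 CPM against 542 and 215 CPM, but above 1 without cells that held the plasmacytoid or type 1 core. The part of this response in the other differences, including Egr1, Nr4a1 and Ccl4, was not tested.

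**Figure D5:**
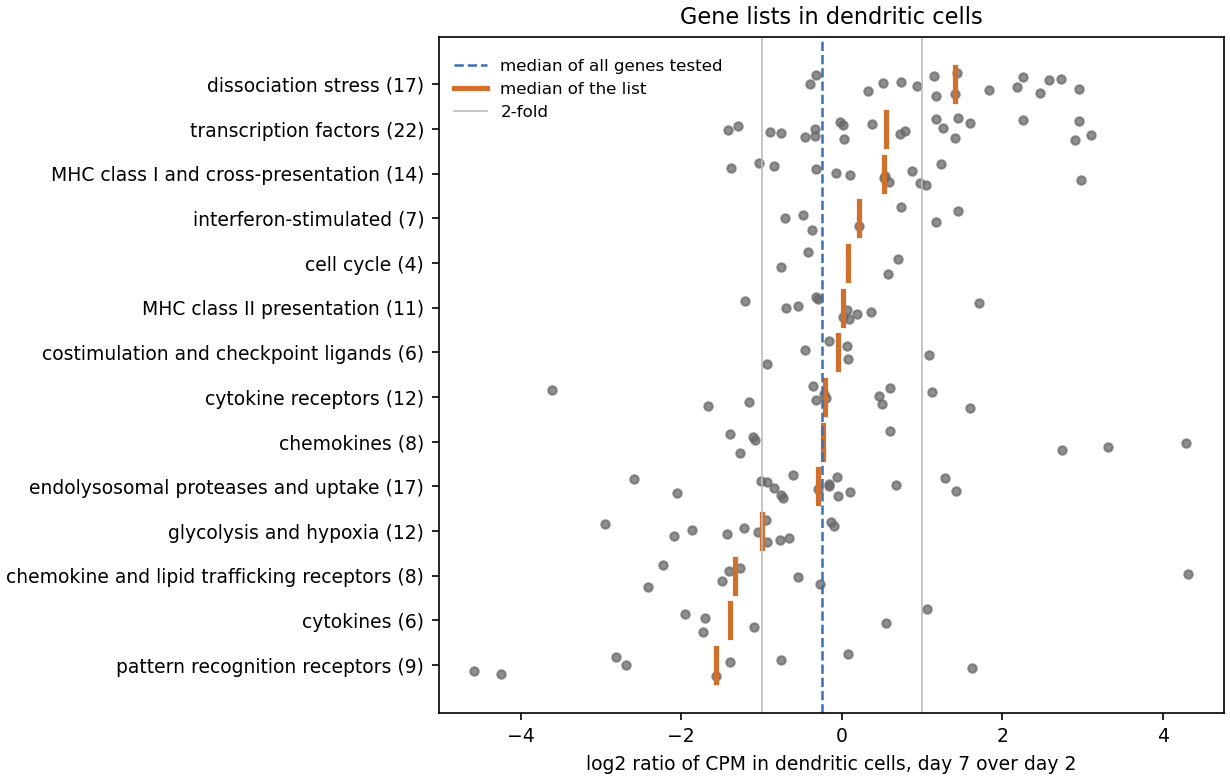
Log2 ratio of CPM in dendritic cells, day 7 over day 2, for the tested genes of 14 lists (points), with list medians (orange bars), the median of all genes tested (dashed line, -0.25) and lines at 2-fold. The number of tested genes is given after each name. Genes that passed the filter on 1 day only are included, which widens lists such as pattern recognition receptors, where 6 of 9 passed at day 2 only.

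Il1b, Gapdh and Hspa1a were also read within subsets. In cells with the type 2 core alone, 75 at day 2 and 36 at day 7, Il1b was at 2000 and 1044 CPM, Gapdh at 770 and 160 CPM and Hspa1a at 1795 and 10441 CPM. In cells with the type 1 core alone, 10 and 25, Il1b was at 1289 and 676 CPM, Gapdh at 555 and 134 CPM and Hspa1a at 1109 and 8299 CPM. In cells with the migratory core alone, 14 on each day, Il1b was at 3739 and 326 CPM, Gapdh at 800 and 217 CPM and Hspa1a at 2849 and 15977 CPM. The direction was thus the same in each of these 3 groups of cells. Cells with the plasmacytoid core alone (2 and 13), with more than 1 core (40 and 40) or with none (29 and 17) are not part of this reading. Ccl5 was uneven, with 70 and 743 counts in the migratory cells, 1 and 36 in the type 2 cells, and 0 and 8 in the type 1 cells.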

How the data were processed

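The authors deposited 10x count tables, made with Cell Ranger (3.0.1 in the file headers, 3.1.0 in the processing notes, mm10), and tables of estimated counts corrected with SoupX for free RNA. The SoupX tables were used unrounded, for the limits on cells and as an alternative. Their annotation table names the cell types. Per the study's methods the authors removed doublets with DoubletFinder before annotation and clustered with Seurat (3.1.5 in the processing notes). No doublet caller was run here. All table barcodes, 3537 and 3416, were found among the called ones.

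Cells with a type and at least 750 genes, 1000 transcripts and at most 30% mitochondrial transcripts were used. Counts were summed over dendritic cells per library and given as CPM. Intervals (95%) were exact Poisson for levels, exact Clopper-Pearson for shares, exact conditional binomial for ratios, and square-and-add for differences of shares. With 1 library per day no test was made. Log2 ratios in the text use the counts as they are. Counts under 3 were taken as 3 for ranking, list medians, alternatives and plots, and for the fold given where a count is 0. Mitochondrial, ribosomal protein and hemoglobin genes were left out of the 2878 genes tested. Clusters used 1000 variable genes, 15 principal components, 15 neighbors and Leiden resolution 1 (scanpy 1.11.5, Python 3.11.15), without batch correction. Clusters were named from the marker lists.

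The members and gene lists were chosen with earlier results of these data known. Genes were named if they were core or key lineage genes, among the 12 largest or 12 smallest ratios outside the myofiber list, among the 15 genes most separating dendritic cells, or among the up to 3 furthest from 1 in each direction in a list. Other list members named beside them were chosen after their values were seen. A few genes that the rule or the lists hold are not reported here. Coordinates are from GENCODE M21 (27645 of 27998 IDs matched) and promoters from RefSeq. Tested on simulated data for 2878 genes, of which 200 were changed, 95.2% of intervals held the true ratio and 100% of 3-fold changes in either direction were recovered. The simulated counts were Poisson draws, without spread between cells or animals. Coverage near 95% therefore follows from the model and says nothing of such spread. Alternatives covered the limits, filter, scaling, SoupX values, mean of per-cell CPM, thinning, core thresholds, cluster resolution and cells with markers of other types.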

Additional observations from a re-analysis of the deposited data

Results flagged for a closer look

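Core markers also appeared in barcodes that met the limits but are not in the annotation table, which the comparisons did not use. At day 2, of 680 such barcodes, 16 held at least 2 counts over the conventional type 1 core, 53 over the type 2 core and 87 over the migratory core. At day 7, of 477, the type 1 core was held by 17, the type 2 core by 20, the migratory core by 89 and the plasmacytoid core by 4. Of the 53 barcodes with the type 2 core at day 2, 46 also held at least 3 counts of macrophage markers and 11 held Flt3. Of the 89 with the migratory core at day 7, 59 held at least 3 counts of fibro-adipogenic progenitor markers, 63 of endothelial markers, and 0 held Flt3. Their median depth was 14729 counts, against 2879 over all 477 barcodes.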

How the results depend on the processing

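No paired analysis was possible because there is 1 library per day. No replicate could be left out for the same reason. The difference in the dendritic share was 4.45 points among monocytes, macrophages and dendritic cells and -2.33 points without neutrophils, whose number differed between days, in place of -0.812. The migratory share differed by 0.417 points after thinning. Genes at least 2-fold higher and lower at day 7 numbered 136 and 339 of 2878. They numbered 325 and 461 of 4670 with at least 50 counts and no filter on cells, and 219 and 204 with median-of-ratios scaling. Without cells that held the plasmacytoid or type 1 core, a setting chosen after seeing the data, they numbered 90 and 419 of 2532. Without those cells the log2 ratio was -1.51 for Spp1 and -0.19 for Ctsl, and of 112 named genes these 2, which had been at least 2-fold higher, turned and another 56 moved outside their counting interval, while 33 moved with median-of-ratios scaling, 12 with the mean of per-cell CPM, 4 with SoupX values and 0 over all annotated barcodes. Of 67 named genes called at 2-fold, the call ended in that setting for 8, namely Spp1, Ctsl, Ccl2 (-0.31), Ccl9 (-0.30), Ifi30 (-0.75), Osm (-0.98), Spib (0.96) and Irf7 (0.81), and for up to 7 in each other setting. Ratios short of 2-fold turned without those cells for Ccr7 (0.27), Ier3 (0.16), Nfkbia (0.25), Irf4 (-0.04), Cd209d (-0.13), Vsir (-0.06) and Cd48 (0.005), with the mean of per-cell CPM for Fscn1 (-0.15) and Cd40 (-0.26), and with median-of-ratios scaling for Cd48 (0.10). Cluster names depended on the settings. At resolution 0.5, type 1-like clusters held 18.7% of cells, type 2-like 34.0% and migratory-like 4.76%. At resolution 1.5, type 2-like clusters held 11.4%, migratory-like 15.9% and plasmacytoid-like 16.2%, and with SoupX values type 2-like clusters held 16.5%. At the resolution used, these were 11.1% for type 1-like and plasmacytoid-like, 9.84% for migratory-like and 0% for type 2-like clusters. The cause of these changes was not tested. The 170 and 145 cells and their unequal depth limit small shares and genes with few counts.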
